A study of Mus musculus with 6 samples.

Results

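The genes described here are the replication-dependent histone genes, measured in macrophages from the epididymal fat of lean and obese mice. They were chosen by symbol: every transcript cluster (the array's unit for a gene) whose annotated symbol begins with Hist1h, Hist2h, Hist3h or Hist4h, or with the current forms H1f, H2ac, H2bc, H3c or H4c and a digit. The search found 71 histone genes on 70 transcript clusters. Of those clusters, 31 were annotated to 1 gene and 39 to several. Histone copies of one type are nearly identical in sequence, and which transcripts a cluster reads was not tested, whether shared or annotated to 1 gene. Genes or clusters called are thus not known to be separate readings. In all, 30 histone genes had a cluster of their own, out of 30135 genes tested, and the other 41 were measured only through shared clusters. For a gene with several clusters of its own (only Hist1h4b), the brightest by mean value was used.

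A cell that copies its DNA must make a matching amount of histone protein, and these genes supply it. They lie in clusters, largely lack introns, and are transcribed mainly in S phase. Their mRNAs end in a stem-loop in place of a poly(A) tail, which is bound by SLBP. The core histones H2A, H2B, H3 and H4 form the nucleosome, and linker histone H1 binds the DNA between nucleosomes. Copies that can also be expressed outside S phase, called replication-independent variants, are mostly encoded elsewhere, and most carry ordinary poly(A) tails.

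Male C57BL/6J mice aged 22 weeks were studied. From 6 weeks of age, and for the next 16 weeks, they were given either a normal chow (NCD) or a high-fat food of 60% fat (HFD). Cells positive for F4/80, a macrophage surface protein, were selected with magnetic beads from the collagenase-digested stromal vascular fraction of epididymal fat. There were 3 arrays per diet, each of RNA pooled from 20 NCD mice or from 10 HFD mice, so the spread within a diet is that between pools, and the pools differ in size. The diets may also differ in more than fat content, as they came from different suppliers. No genotype other than the strain was given.

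All 7 macrophage markers measured had mean levels between 11.57 and 18.81 (log2 array units). The genes Cd68 and Fcgr1 were higher in HFD, Mertk was lower and the other 4 were not called. Of those 4, Adgre1 stood higher on every HFD array (0.91 ± 0.27, limma adjusted p = 0.0924). Csf1r (0.18), Itgam (0.01) and Lyz2 (−0.07) overlapped between the diets. Mean deviations of the 7 markers were −0.04, −0.03 and −0.61 over the NCD arrays and 0.16, 0.21 and 0.31 over the HFD arrays. Markers of other cells also differed between the pools. All 5 smooth muscle markers and all 5 mesothelial markers were lower in HFD, with median log2 differences of −4.53 and −1.76, and 4 of 5 fibroblast markers were higher (median 1.93). The other fibroblast marker, Dcn, stood lower on every HFD array and was not called (−0.88 ± 0.29, limma adjusted p = 0.126). None of the 7 endothelial markers was called (limma; 5 lower at an unadjusted p below 0.05), but their mean deviation ran from −0.55 to 1.87 over the NCD arrays and from −1.40 to 0.02 over the HFD arrays. The B cell markers stood highest on NCD1 (mean deviation 1.39), as did the T cell markers (0.74) and the mesothelial markers (1.33). No B cell, T cell or neutrophil marker was called (limma). The neutrophil markers stood highest on HFD3 (2.09). The endothelial score was entered as a covariate, with the values given beside the results, and the part of the other markers in the results was not tested. In RNA from bulk pools, fewer cells of a type and less RNA per cell cannot be told apart.

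Among the 30 histone genes, 5 were higher in HFD (16.7%; 4.96% of all genes tested were) and 1 was lower (3.33%; 2.87% of all genes). The remaining 24 were not called at an adjusted p below 0.05 (limma, Benjamini-Hochberg over all 30135 genes). The median log2 difference, HFD minus NCD, was 0.39 over the histone genes and 0.01 over all genes, with histone genes running from −0.88 to 1.13. It was positive for 21 of them and negative for 9. All 3 HFD arrays stood above all 3 NCD arrays in 14 histone genes (46.7%; 17.7% of all genes) and below them in 3 (10.0%; 13.0% of all genes). In the other 13 the diets overlapped. The called genes were the H2A genes Hist1h2af, Hist1h2ap, Hist1h2aj and Hist1h2ah and the H2B gene Hist1h2ba, which rose, and the H4 gene Hist1h4a, which fell. Of the 30 genes, 7 (23.3%) had a mean below the background level of 6.23, set from the array's antigenomic probe sets, against 47.8% of all genes. The symbols also take in genes that are not typical of the family: H1f7, the testis genes Hist1h1t, Hist1h2aa and Hist1h2ba, and the pseudogenes Hist3h2bb-ps and Hist1h2aj. Without these, 3 of 24 genes were higher and 1 was lower, with the same median of 0.39.

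All 5 rises were called when NCD1 was left out, as were 5 more histone genes (10 higher in all), and no histone gene was called higher without NCD2, NCD3, HFD1, HFD2 or HFD3 in turn (limma; 11 to 15 were higher at an unadjusted p below 0.05 in those fits). The call of Hist1h4a was lost without NCD2, HFD1, HFD2 or HFD3. Over all genes, the number called also moved with the array left out. The number higher ran from 316 without NCD2 to 2400 without NCD1, and the number lower from 124 without HFD3 to 2313 without NCD1. With the endothelial marker score as a covariate, no histone gene was called higher (3 at an unadjusted p below 0.05), Hist1h4a was called lower, and the median difference was 0.15. That fit called 328 genes higher and 372 lower over all genes. Each column centred on its median gave 11 histone genes higher and 1 lower, and changed the calls over all genes from 1494 higher and 865 lower to 2575 and 695.

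**Figure D1:**
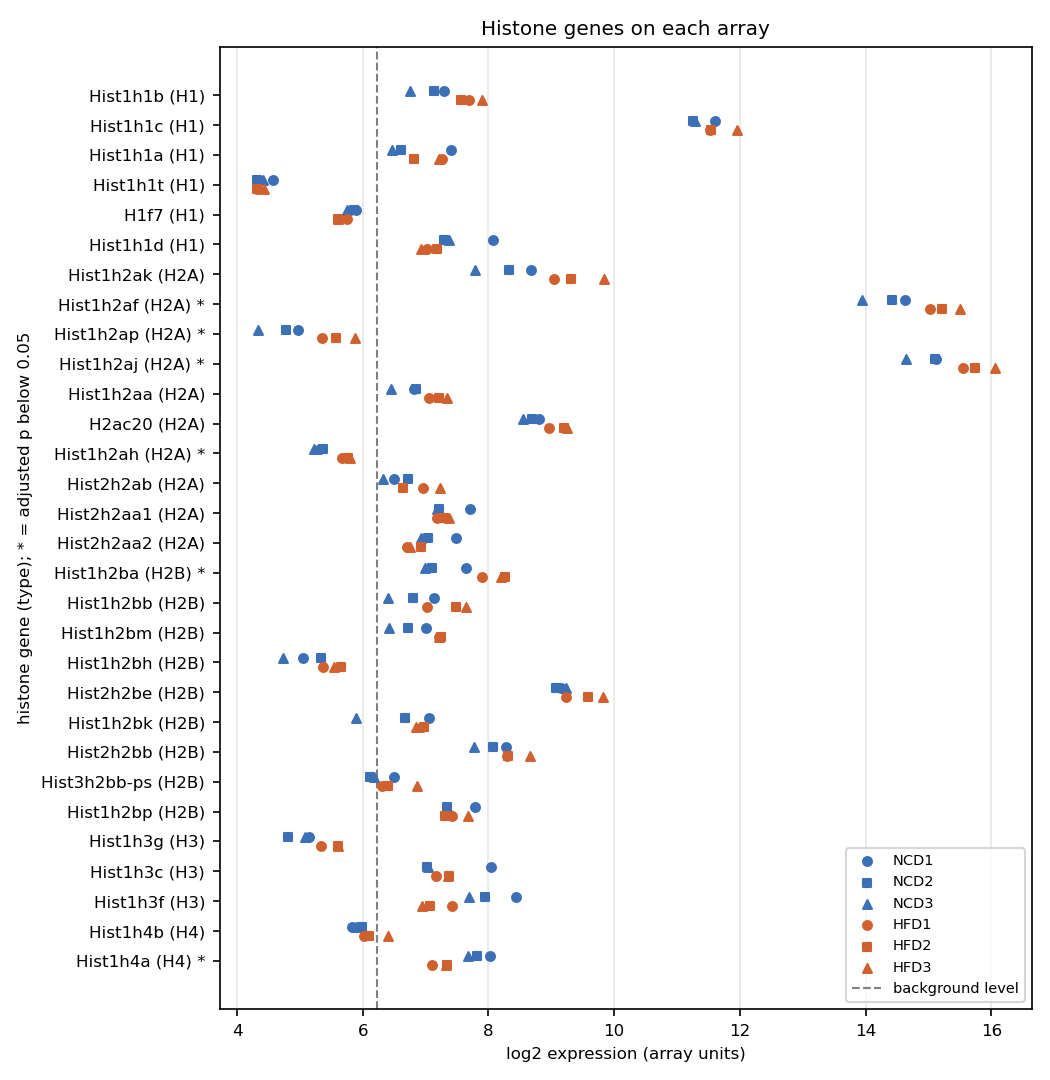
Log2 expression of the 30 histone genes with a transcript cluster of their own on each of the 6 arrays (horizontal axis, array units), with genes on the vertical axis grouped by histone type; blue symbols are the 3 NCD pools, orange symbols the 3 HFD pools, and the dashed line is the background level of 6.23. The HFD points lie to the right of the NCD points in 14 genes and to the left in 3, and an asterisk marks the 6 genes called.

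A promoter each of an H2A, an H2B, an H1 and an H4 gene is shown here, because the histone types carry known and different promoter elements. Those of Hist1h2ah, Hist1h2ba and Hist1h4a belong to called genes, and Hist1h1b was the H1 gene with the largest difference and was not called. The stretches come from the RefSeq table of GRCm38.p6 and are written on the coding strand, with motif matches on either strand in capitals. The motifs searched were CCAAT, the TATA motif TATAAA, the octamer ATTTGCAT known from H2B promoters, AAACACA known from H1 promoters, and GGTCCG known from H4 promoters. All 4 stretches lie on the minus strand of chromosome 13: Hist1h2ah (now H2ac12) at chr13:22035654-22035803, Hist1h2ba (H2bc1) at chr13:23934242-23934381, Hist1h1b (H1f5) at chr13:21780646-21780755 and Hist1h4a (H4c1) at chr13:23761250-23761359.
Hist1h2ah: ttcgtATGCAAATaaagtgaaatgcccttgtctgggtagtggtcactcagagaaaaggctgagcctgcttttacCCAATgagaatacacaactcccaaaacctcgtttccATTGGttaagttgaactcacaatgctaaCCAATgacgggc
Hist1h2ba: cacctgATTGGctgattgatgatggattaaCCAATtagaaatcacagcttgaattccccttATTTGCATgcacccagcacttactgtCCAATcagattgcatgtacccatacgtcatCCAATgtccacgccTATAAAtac
Hist1h1b: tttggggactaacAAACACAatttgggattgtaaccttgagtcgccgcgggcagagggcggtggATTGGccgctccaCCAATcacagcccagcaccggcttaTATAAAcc
Hist1h4a: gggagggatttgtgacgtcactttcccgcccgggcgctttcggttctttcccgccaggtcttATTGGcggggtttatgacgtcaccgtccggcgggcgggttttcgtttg
The H2A gene and the H2B gene each carry the octamer and several CCAAT boxes. The H1 promoter has AAACACA upstream of a pair of CCAAT boxes and a TATA motif. The printed stretch of Hist1h4a, the gene that fell, holds 1 CCAAT box and none of the other motifs, but a TATAAA match lies outside it in the gene's longer window.

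Over whole windows of 300 bases (250 before the gene start and 50 after), 26 of the 30 histone genes had a RefSeq promoter. A CCAAT box on either strand was found in 24 of them (92.3%; 37.4% of all 32851 promoters) and TATAAA in 14 (53.8%; 13.6%). The octamer was in 8 histone promoters (30.8%; 1.74% of all promoters): 5 of 7 H2B genes and 3 of 9 H2A genes. Those 8 genes had log2 differences between 0.38 and 0.88, and 2 of them, Hist1h2ah and Hist1h2ba, were called higher (4.96% of all genes were). Histone genes whose window lacks the octamer had a median difference of 0.27, against 0.48 with it. The called genes Hist1h2af, Hist1h2ap and Hist1h4a were among those without. All 8 octamer genes are H2A or H2B, whereas those without include every H1, H3 and H4 gene with a window. H2A and H2B genes without it ran from −0.35 (Hist2h2aa2) to 1.13 (Hist1h2ak). Motif and histone type thus cannot be told apart in these medians, and the difference was not tested. AAACACA was in 7 (26.9%; 7.18%), among them 4 of 6 H1 genes. GGTCCG was in 2 (7.69%; 8.25%). Some windows are not independent, since H2A and H2B genes often share a divergent promoter: those of Hist1h2ah and Hist1h2bk overlap by 277 bases, and those of Hist1h2aa and Hist1h2ba by 220. A match describes the letters in the window and is not a site of binding.

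The linker histone H1 genes showed no call in 6 (limma; 1 higher and 1 lower at an unadjusted p below 0.05). Their median difference was 0.09, with 3 positive and 3 negative. Hist1h1b, one of the somatic H1 subtypes, read 7.29, 7.14 and 6.75 on the NCD arrays and 7.69, 7.56 and 7.90 on the HFD arrays. Every HFD array stood above every NCD array, yet the difference of 0.66 ± 0.17 (SE) missed the threshold (limma adjusted p = 0.0652). Hist1h1d went the other way without overlap, from 8.06, 7.29 and 7.37 in NCD to 7.03, 7.18 and 6.92 in HFD, a difference of −0.53 ± 0.21 (adjusted p = 0.191). NCD1 was the highest of the 6 arrays, and without it the difference was −0.28. Hist1h1c, another somatic H1 subtype, read 11.61, 11.25 and 11.29 in NCD and 11.53, 11.54 and 11.96 in HFD. Its diets overlapped, with a difference of 0.29 ± 0.17 (adjusted p = 0.358), or 0.15 without HFD3. The testis gene Hist1h1t had a mean of 4.39, below background, and a difference of −0.08 ± 0.09 (adjusted p = 0.635). With each column centred on its median the sign of that difference turned (0.01). The remaining H1 genes, Hist1h1a and H1f7, differed by 0.26 and −0.18 with overlapping diets.

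Histone H2A had the most calls: 4 of its 10 genes rose (4.96% of all genes did), none fell, and the median difference was 0.48. In 7 of the 10 the HFD arrays all stood above the NCD arrays (17.7% of all genes). Hist1h2af read 14.62, 14.41 and 13.94 in NCD and 15.02, 15.21 and 15.51 in HFD. The diets did not overlap, NCD3 was the lowest array and HFD3 the highest, and the rise was 1.90-fold (0.92 ± 0.21, limma adjusted p = 0.0479). Hist1h2aj, a name that the RefSeq table gives as a synonym of the pseudogene H2ac14, read 15.12, 15.11 and 14.65 in NCD and 15.55, 15.73 and 16.06 in HFD. The order of the arrays was much the same, and the rise was 1.77-fold (0.82 ± 0.19, adjusted p = 0.0478). How far the probes of this pseudogene, or of the other H2A genes, also bind transcripts of near-identical copies was not tested. The 4 rises therefore need not be separate.

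The other H2A rises lay below the background level. Hist1h2ap read 4.97, 4.79 and 4.33 in NCD and 5.35, 5.58 and 5.87 in HFD, a difference of 0.91 ± 0.20 (adjusted p = 0.0416). Its arrays stood in the same order as those of Hist1h2af and with much the same spacing, at a far lower level. Hist1h2ah, whose promoter is printed above, read 5.32, 5.38 and 5.23 in NCD and 5.67, 5.77 and 5.79 in HFD, the tightest arrays of any called histone gene. Its difference was 0.43 ± 0.07 (adjusted p = 0.0214). Adjusted p-values of the 4 H2A genes with NCD2, NCD3 or any HFD array left out lay between 0.0501 and 0.176, with differences between 0.40 and 1.04. With the endothelial score in the fit their differences were between 0.37 and 0.51 and their adjusted p-values between 0.18 and 0.348.

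The largest positive difference of any histone gene was not called. Hist1h2ak read 8.67, 8.32 and 7.79 in NCD and 9.05, 9.31 and 9.84 in HFD, with no overlap but a spread of up to 0.44 (SD, n = 3) within a diet. Its difference was 1.13 ± 0.28 (adjusted p = 0.0614) and it was called higher without NCD1. Hist1h2aa, a testis H2A, had a difference of 0.50 ± 0.14 (adjusted p = 0.0855), also without overlap. The 2 H2A genes with negative differences, Hist2h2aa1 (−0.08) and Hist2h2aa2 (−0.35), belong to the Hist2 group on chromosome 3 and overlapped between the diets. Others of that group, H2ac20 (0.45, no overlap) and Hist2h2ab (0.42), were positive and not called.

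Of the 9 H2B genes, 1 rose (4.96% of all genes did) and none fell, with a median difference of 0.39 and 8 positive. Hist1h2ba, the H2B of the male germ line, read 7.64, 7.11 and 6.99 in NCD and 7.90, 8.27 and 8.20 in HFD. The diets did not overlap, and the rise was 1.84-fold (0.88 ± 0.20, limma adjusted p = 0.0452). The adjusted p was 0.00823 without NCD1 and from 0.0720 to 0.169 without any other array, and 0.172 with the endothelial score. Next in size came Hist1h2bb, with a difference of 0.60 ± 0.23 (adjusted p = 0.174) and overlapping diets. Hist1h2bm read 7.01, 6.71 and 6.42 in NCD and 7.21, 7.24 and 7.22 in HFD, so that the HFD pools lay within a much narrower range than the NCD pools. Its difference was 0.51 ± 0.15 (adjusted p = 0.0948). Hist2h2be, an H2B gene known to give a polyadenylated mRNA in resting cells as well, differed by 0.39 ± 0.17 (adjusted p = 0.208), or 0.25 without HFD3. The remaining H2B genes ran from −0.02 for Hist1h2bp to 0.49 for Hist1h2bh.

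Only 3 H3 genes and 2 H4 genes had clusters of their own, and these held the largest negative values. Hist1h3f read 8.43, 7.95 and 7.69 in NCD and 7.42, 7.07 and 6.94 in HFD. All HFD arrays were below all NCD arrays, and the difference of −0.88 ± 0.22 was not called (limma adjusted p = 0.0607). It was called without NCD3 (0.0476), with array weights (0.0333) and without genes below background (0.0419). Hist1h3g, by contrast, read 5.15, 4.81 and 5.09 in NCD and 5.34, 5.61 and 5.61 in HFD, below background, with a difference of 0.50 ± 0.12 (adjusted p = 0.0566). The other H3 gene, Hist1h3c, stood at −0.06 with NCD1 the highest array. Hist1h4a, one of the many genes that encode the same H4 protein, read 8.03, 7.82 and 7.68 in NCD and 7.10, 7.34 and 7.33 in HFD. It was the single histone gene that fell: by 0.59 ± 0.13 on the log2 scale, 1.50-fold (adjusted p = 0.0409). The call held without NCD1 (0.0407), without NCD3 (0.0429) and with the endothelial score (−0.85, adjusted p = 0.0254). Without NCD2, HFD1, HFD2 or HFD3 its adjusted p lay between 0.114 and 0.128.

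Among histone genes with a transcript cluster of their own, neighbours in the large histone cluster on chromosome 13 could differ in sign. Genes read only through shared clusters are left out of this order, so neighbours here need not adjoin on the chromosome. Along the 21 such genes placed there by RefSeq, Hist1h2af (0.92), Hist1h3g (0.50) and Hist1h2bh (0.49) stood next to Hist1h3f (−0.88) and Hist1h1d (−0.53). Hist1h4b (0.27) and Hist1h4a (−0.59) were neighbours with opposite signs. Of the genes named here, only Hist1h2af and Hist1h4a were called. All 6 calls were in the Hist1 group of 22 genes, which had a median difference of 0.46. The Hist2 group of 6 genes had no call (limma; 2 higher at an unadjusted p below 0.05) and a median of 0.39. The difference between the groups was not tested.

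**Figure D2:**
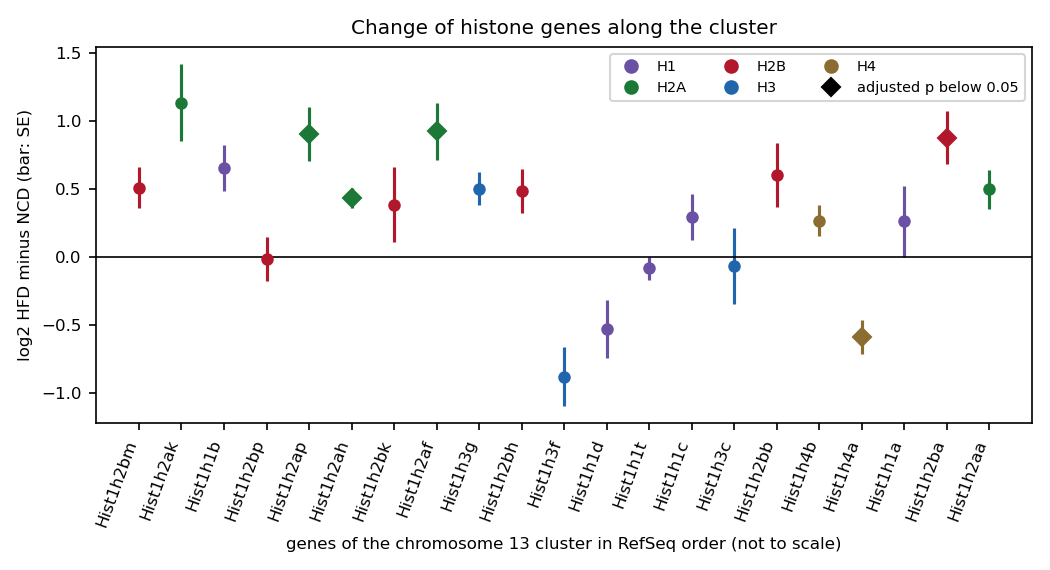
Log2 difference, HFD minus NCD (vertical axis), of the histone genes on chromosome 13 that have a transcript cluster of their own. The genes are in RefSeq order (horizontal axis, not to scale), with bars of 1 standard error. Colours give the histone type and diamonds the called genes. Neighbours of opposite sign include Hist1h2bh (0.49) beside Hist1h3f (−0.88), and Hist1h4b (0.27) beside Hist1h4a (−0.59).

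The 39 transcript clusters annotated to several symbols cannot be assigned to a gene, and were fitted as features of their own beside all genes (32281 features in all). Among them is a cluster that pairs a single histone gene, Hist3h2a, with Trim17, which is no histone gene. Of these, 6 were higher in HFD (15.4%; 4.76% of all features) and 1 was lower (2.56%; 2.71%), and the median difference was 0.25. All HFD arrays exceeded all NCD arrays in 16 (41.0%; 17.4% of all features) and lay below them in 1 (12.8% of all features). The calls were 4 of 7 H3 clusters, 2 of 9 H2B clusters, none of 10 H2A clusters and none of 11 H4 clusters (5 and 1 higher at an unadjusted p below 0.05, limma), with the cluster that fell annotated to both H1 and H2B genes.

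The shared H3 clusters all had positive differences, from 0.23 to 0.98 (median 0.71). The brightest called one, annotated to 8 H3 genes, read 10.60, 10.55 and 10.46 in NCD and 11.25, 11.27 and 11.42 in HFD. The diets were separated by more than the range of either, and the rise was 1.71-fold (0.77 ± 0.11, limma adjusted p = 0.0133). A cluster of 4 other H3 genes, at a mean of 6.27 against the background level of 6.23, rose by 0.98 ± 0.17 (adjusted p = 0.0227). Its NCD arrays read 6.12, 5.68 and 5.55, all below that level. The remaining called clusters list 8 genes each. The first, with the same 8 symbols as the brightest, rose by 0.71 ± 0.13 (adjusted p = 0.0281). The second, at a mean of 3.99 and so below background, lists its genes under current names and rose by 0.73 ± 0.09 (adjusted p = 0.00919). A further cluster with the same 8 symbols as the brightest, at a mean of 10.83, was not called (0.23 ± 0.16, adjusted p = 0.455). Called clusters that share symbols are thus not separate gene sets. Hist1h3f, the H3 gene with the negative difference on its own cluster, is among the 8 annotated genes of the brightest one. The H3 readings of the array therefore disagreed in sign.

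Readings of shared H2B clusters disagreed too. A cluster annotated to Hist1h2bc, Hist1h2bg and Hist1h2be read 13.42, 13.05 and 12.97 in NCD and 14.17, 14.17 and 14.49 in HFD. It rose 2.19-fold (1.13 ± 0.16, limma adjusted p = 0.0147). A second cluster with the same 3 symbols had a difference of −0.33 ± 0.31 (adjusted p = 0.601). Another cluster, which adds the H1 gene Hist1h1e and a gene model, read 8.80, 8.67 and 8.42 in NCD and 7.91, 8.09 and 8.03 in HFD and fell by 0.62 ± 0.13 (adjusted p = 0.0375). The other called H2B cluster, of 4 genes, rose by 1.10 ± 0.20 (adjusted p = 0.0245).

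Among the 10 shared H2A clusters the median difference was 0.55. Of the 7 clusters annotated to the same 10 H2A genes, 5 had every HFD array above every NCD array (17.4% of all features did). The brightest of those, at a mean of 15.18, differed by 0.89 (adjusted p = 0.0522). The 11 shared H4 clusters, each annotated to 13 H4 genes, ran from −0.39 to 0.42 with a median of 0.11. In 2 of them every HFD array stood above every NCD array (17.4% of all features). Whether the H3 and H4 clusters differ in their response was not tested. The number of shared calls moved with the array left out, as the gene calls did: 12 clusters were higher without NCD1, 6 without NCD3, 4 without HFD1, 1 without NCD2, 1 without HFD2 and none without HFD3. Whether this came from a given pool or from having fewer arrays was not tested. The cluster that fell was called without NCD1 or NCD3 and not without any other array. With the endothelial score none was higher and 1 was lower.

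**Figure D3:**
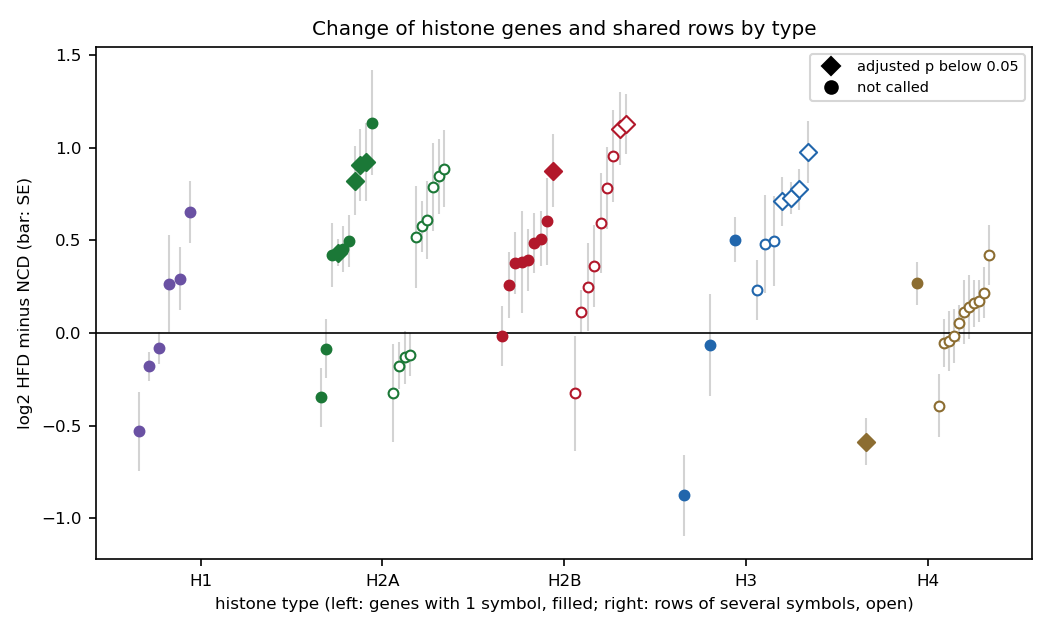
Log2 difference, HFD minus NCD (vertical axis), of the histone genes with a cluster of their own (filled) and of the clusters shared by several genes (open), by histone type (horizontal axis); bars are 1 standard error and diamonds are calls at an adjusted p below 0.05. Shared H3 clusters lie between 0.23 and 0.98 and shared H4 clusters between −0.39 and 0.42; the 2 shared clusters of mixed type are not drawn.

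The pools of one diet were not alike in histone expression. Expressed as the mean deviation from each gene's mean over the 6 arrays, the 30 histone genes stood at 0.10 on NCD1, −0.17 on NCD2 and −0.37 on NCD3, and at 0.03 on HFD1, 0.13 on HFD2 and 0.28 on HFD3. NCD1 lay above HFD1 by this measure, so the diets overlapped. NCD1 was the highest NCD array for 24 of the 30 genes, and HFD1 the lowest HFD array for 22. For the 10 H2A genes alone the values were −0.05, −0.20 and −0.52 in NCD and 0.09, 0.23 and 0.45 in HFD, without overlap. The 6 H1 genes were highest on NCD1, at 0.25. As given above, NCD1 also stood apart in its B cell, T cell and mesothelial markers and had the lowest endothelial score of the NCD arrays. The part of these markers in the result was not tested beyond the covariate fit.

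Genes of DNA replication, together with the proliferation genes Mki67, Ccna2 and E2f1, were compared in the same fit as a list of S phase genes. Of 35 S phase genes measured, 28 rose in HFD (4.96% of all genes did) and none fell, with a median difference of 1.00. In 34 every HFD array was above every NCD array (17.7% of all genes). Gins1, a subunit of the replicative helicase complex, rose by 1.40 ± 0.16 (limma adjusted p = 0.00788). Mcm3, part of the helicase ring, rose by 1.23 ± 0.14 (adjusted p = 0.00797), and Dnmt1, the maintenance DNA methyltransferase, by 1.09 ± 0.13 (adjusted p = 0.00826). Pcna, the sliding clamp of DNA polymerase, read 13.07, 12.48 and 12.49 in NCD and 13.63, 13.64 and 13.81 in HFD and rose by 1.01 ± 0.18 (adjusted p = 0.0256). Mki67, which encodes the proliferation antigen Ki-67, read 12.29, 11.43 and 10.51 in NCD and 13.51, 13.59 and 14.21 in HFD, a rise of 2.36 ± 0.45 (adjusted p = 0.0288). Mean deviations of the 35 genes were −0.35, −0.54 and −0.65 in NCD and 0.37, 0.41 and 0.76 in HFD, with the pools of each diet in the same order as for the histone genes. The count of 28 was reduced to 10 when HFD3 was left out, to 9 for HFD2, to 5 for NCD2, and to 6 by the endothelial score.

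**Figure D4:**
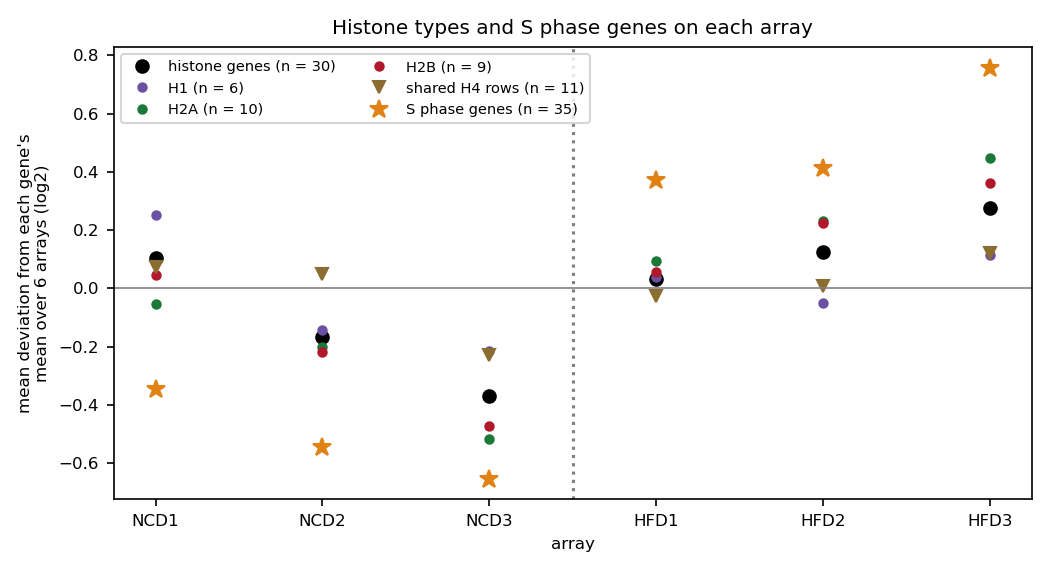
Mean deviation from each gene's mean over the 6 arrays (vertical axis, log2) on each array (horizontal axis), for the histone genes, the H1, H2A and H2B genes, the shared H4 clusters and the S phase genes. The S phase genes run from −0.65 to −0.35 in NCD and from 0.37 to 0.76 in HFD, whereas the histone genes run from −0.37 to 0.10 and from 0.03 to 0.28, with NCD1 above HFD1.

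Of the machinery that makes and matures histone mRNA, 4 of 19 genes rose (4.96% of all genes did) and none fell. The median difference was 0.22, and 0.13 without NCD1 and 0.14 without HFD3. They were the cyclins E, Ccne2 (1.55 ± 0.23, limma adjusted p = 0.0147) and Ccne1 (0.96 ± 0.15, adjusted p = 0.0169), whose kinase activates histone transcription, then Nfya (1.01 ± 0.13, adjusted p = 0.00955) and Lsm11 (0.38 ± 0.07, adjusted p = 0.0304). Nfya is a subunit of the factor NF-Y that binds CCAAT boxes, and it read 10.53, 10.52 and 10.52 in NCD and 11.34, 11.70 and 11.55 in HFD. The other NF-Y subunits were not called, at −0.12 for Nfyb and −0.02 for Nfyc. Lsm11 is a component of the U7 small nuclear ribonucleoprotein that cuts the histone pre-mRNA. Slbp, the stem-loop binding protein, read 8.50, 8.24 and 8.09 in NCD and 8.52, 8.61 and 8.60 in HFD, without overlap but not called (0.30 ± 0.13, adjusted p = 0.211). Npat, the coactivator of histone genes in S phase, differed by −0.22 ± 0.15 (adjusted p = 0.42), and Casp8ap2, the processing factor also called FLASH, by −0.03 ± 0.14 (adjusted p = 0.933). Leaving out HFD2 gave 0 called higher, NCD2 or HFD3 gave 1, and NCD1 gave 7, and the endothelial score gave 0.

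Of 17 chaperones and importers that carry new histones, 4 rose (4.96% of all genes did) and none fell (median 0.22). Chaf1b and Chaf1a, subunits of the chromatin assembly factor that deposits H3 and H4 behind the replication fork, rose by 0.85 ± 0.10 (limma adjusted p = 0.0082) and 0.64 ± 0.14 (adjusted p = 0.0432). Asf1b, the H3 and H4 chaperone of proliferating cells, rose by 1.24 ± 0.26 (adjusted p = 0.037), whereas its paralogue Asf1a had a difference of −0.30 ± 0.16 (adjusted p = 0.313). The importin Ipo4 rose by 0.49 ± 0.10 (adjusted p = 0.0308). The number higher was 7 without NCD1, 1 without any other single array and 0 with the endothelial score.

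Of 11 genes listed as replication-independent histone variants, 3 rose (4.96% of all genes did) and none fell (median 0.22). How far the expression of these genes follows the cell cycle was not tested. H2afx, the H2A variant phosphorylated at DNA breaks, read 7.63, 7.55 and 7.47 in NCD and 8.37, 8.45 and 9.10 in HFD and rose by 1.09 ± 0.20 (limma adjusted p = 0.0265). H2afz, which encodes H2A.Z, rose by 1.01 ± 0.22 (adjusted p = 0.0426), and Cenpa, the centromeric H3, by 0.89 ± 0.21 (adjusted p = 0.0499). H3.3, the replacement form of H3, was read only through a pair of clusters annotated to 6 genes each (both holding H3f3a and H3f3b). Their differences were 0.02 ± 0.18 (adjusted p = 0.973) and −0.57 ± 0.25 (adjusted p = 0.227). The number higher was 3 without NCD1, 1 without HFD1 or HFD3, 0 without NCD2, NCD3 or HFD2, and 0 with the endothelial score.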

How the data were processed

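Expression was measured in 6 pools of fat macrophages on Affymetrix arrays, from 100 ng of RNA per pool labelled with the WT PLUS kit. The values deposited by the authors are on a log2 scale, and the submitters' processing notes name RMA, Transcriptome Analysis Console 3.1.0.5 and Affymetrix Expression Console 1.4.1.46, with no role or order. The array's genome build is not given in the sources used here. Of 65956 transcript clusters, 30604 had 1 symbol, 2146 had several and 33206 had none, per the platform annotation, and 22818 of the first matched RefSeq by Entrez ID. Column medians lay between 5.95 and 6.03. Precision is limited by how few arrays there are, and p-values measure the spread between pools.

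HFD was compared with NCD with limma 3.58.1 (lmFit, eBayes with trend) in R 4.3.3, with no covariate and no filter on dim genes, over 30135 genes, 1 cluster each. Benjamini-Hochberg values below 0.05 were called. The fit was tested on simulated data with independent noise for each gene and no deviation shared within an array. That test therefore cannot measure false calls in these pools. Background was the 95th percentile of 23 antigenomic probe sets. Tables and figures were made with Python 3.11.15, pandas 2.3.3 and matplotlib 3.10.9. Members and lists were chosen with earlier results of these data known. Named were the called histone genes, the 8 uncalled with the largest differences, genes fixed by name, and the 3 called genes of each related list with the smallest adjusted p. Alternatives covered normalization, trend, weights, filters, the choice of cluster, single arrays, a replicate block and an endothelial score.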

Additional observations from a re-analysis of the deposited data

How the results depend on the processing

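The 5 histone genes higher in HFD became 11 with median centring, 9 with array weights, 3 without testis genes and pseudogenes, and 0 with the endothelial covariate; leaving out single arrays gave 0 to 10. The 1 lower became 0 with quantile normalization, 2 with array weights and 2 without genes below background, and 0 to 2 with single arrays left out. The median difference of 0.39 became 0.15 with the endothelial covariate and 0.27 to 0.46 with single arrays left out. The 28 S phase genes became 6 with that covariate and 5 to 29 with single arrays left out. The 6 shared clusters higher became 11 with median centring, 0 with the covariate and 0 to 12 with single arrays left out, and the 1 lower 0 to 1. Hist1h1t reversed with median centring (0.0080). The alternatives on the atypical members and on shared clusters were chosen after seeing the data. Of 267 alternative values of single genes, most of them of genes not called, 204 kept direction and side of the threshold, 41 lost and 21 gained a call. Only the 6 called genes could lose a call, so the 204 do not measure how stable the calls are. The causes were not tested.

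The labels number the pools 1 to 3 in each diet. Deviations of same-numbered pools correlated at −0.46, −0.12 and −0.15 over genes. The pools also differed in their cell markers, so these values cannot show whether same-numbered pools shared a batch. With the replicate number as a block, 0 histone genes were higher and 0 lower (limma; 12 and 2 at an unadjusted p below 0.05), 0 S phase genes were higher, and 0 shared clusters were higher or lower; 90 genes in all were higher and 54 lower. Arrays of 3 pools per diet limit what can be called.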
